A study of Mus musculus with 8 samples.

Results

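Bdh1 and Acat1 are the 2 ketone body enzymes described here, chosen by symbol from the 24079 gene symbols listed in both assays of a mouse liver study of betaine. Both genes were listed in all 8 libraries and were tested in all 3 measures, which were mRNA level, ribosome footprint level and their ratio. The livers came from C57BL/6 mice collected at postnatal week 25. From week 8 both groups ate a high-fat diet in which fat supplied 45% of the energy. The labels also state 25 weeks on the diet, which is longer than the time between those weeks. The length of feeding given in the study's methods equals that time, so the labels and the methods differ. The HF group had no betaine, and the HB group drank water in which betaine was dissolved at 2% (w/v). Both groups were thus fat-fed, and no standard-diet group was analysed here. Each group had 6 mice, and each assay had 2 libraries per group, called HF1, HF2, HB1 and HB2. The study's methods say that male mice were used and that 2 mice per group near the mean body weight were sequenced, while the labels describe pooled preparations. The p-values given here therefore measure the spread between libraries, which may be technical.

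Ketone bodies are made in the mitochondria of hepatocytes from acetyl-CoA, mostly during fasting or when much fat is oxidised, and are burned by the heart, muscle and brain. ACAT1, the mitochondrial acetoacetyl-CoA thiolase, interconverts acetyl-CoA and acetoacetyl-CoA, and it also catalyses a late step of isoleucine breakdown. The route leads on to acetoacetate, and BDH1, the mitochondrial 3-hydroxybutyrate dehydrogenase, reduces acetoacetate to 3-hydroxybutyrate, the main ketone body in blood. Acat1 and Bdh1 thus stand at the entry and at the exit of the route.

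On GRCm38 (mm10), Bdh1 (ENSMUSG00000046598.15) lies on chromosome 16 from 31422280 to 31458901 on the plus strand, and Acat1 (ENSMUSG00000032047.5) lies on chromosome 9 from 53580522 to 53610382 on the minus strand. The footprint assay reads ribosomes that have started at the initiation codon, so the bases around that codon are shown for both genes, 5′ to 3′ on the mRNA strand, with the start codon in capitals. They were read from the GENCODE M21 transcripts, for Bdh1 from ENSMUST00000115227.9 with its start codon at chr16:31438035-31438037 and for Acat1 from ENSMUST00000034547.5 with its start codon at chr9:53610273-53610275.
Bdh1: cttggtgccacgATGctagctgcccgt
Acat1: tttcgcgtctccATGgctgccctggtg
The same bases surround the start codon of 3 further Bdh1 transcripts. This Bdh1 transcript is 3122 bases long with 7 exons and a coding sequence of 1029 bases, 33.0% of the transcript. The Acat1 transcript is 3405 bases long with 12 exons and a coding sequence of 1272 bases, 37.4% of the transcript. The gene length that the deposited values imply was 3117 bases for Bdh1 and 3373 bases for Acat1 in both assays. These are close to the whole transcripts, so the footprint levels are per transcript length and not per coding length. The 3′ untranslated region takes 1807 bases of the Bdh1 transcript and 2023 bases of the Acat1 transcript. The study reports that part of its footprints lay in such regions, with a lower share under betaine. Some footprints counted here may thus lie outside the coding sequence, which was not tested. An antisense gene, Gm15743, overlaps Bdh1, and the RNA-seq library kit does not mark strand, so RNA reads of the pair cannot be told apart. Gm15743 was listed in the Ribo-seq values but not in the RNA-seq values, and its part in the results of Bdh1 was not tested. No annotated gene overlaps Acat1.

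The libraries differed widely in depth. RNA-seq totals ran from 11661207 to 22543471 reads and were higher in both HB libraries, whereas Ribo-seq totals were 387980 and 1056546 reads in HF and 257086 and 141890 reads in HB. Depth and group cannot be told apart. In the Ribo-seq libraries 91.7% and 90.7% of HF reads but 86.7% and 79.4% of HB reads fell on protein-coding genes. With RPKM rescaled to these reads, an alternative chosen after seeing the data, the footprint differences on the log2 scale described below were -0.24 in place of -0.38 for Bdh1 and 0.044 in place of -0.092 for Acat1. All 7 hepatocyte markers were above 0 in every library, with summed mRNA levels of 43310 to 48469 RPKM (reads per kilobase of gene, scaled to the library total). Of the other liver cells, all 6 stellate markers were above 0 in mRNA and summed to 34.5 to 36.5 RPKM in HF and 45.0 to 72.3 RPKM in HB. Of that sum Dcn held 21.9 and 22.4 RPKM in HF and 57.8 and 30.6 RPKM in HB, and without it the sums were 12.1 to 14.6 RPKM in HF and 14.4 RPKM in both HB libraries. In RPF the stellate sums were lower in HB, with 115 to 124 RPKM in HF and 84.0 to 89.8 RPKM in HB. All 5 cholangiocyte markers were above 0 in mRNA and summed to 26.2 to 31.9 RPKM in HF and 15.7 to 26.0 RPKM in HB. All 5 lymphocyte markers were above 0 and summed to 5.86 to 8.66 RPKM in HF and 2.87 to 3.18 RPKM in HB. The mRNA sums of the 6 Kupffer cell and macrophage markers overlapped, with 109.0 and 121.9 RPKM in HF and 134.4 and 116.1 RPKM in HB. Those of the 5 endothelial markers overlapped too, with 54.4 and 63.5 RPKM in HF and 52.4 and 61.4 RPKM in HB. The part of these markers in the results was not tested. In bulk liver, fewer cells of a type and less RNA per cell cannot be told apart.

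Bdh1 mRNA rose with betaine, while its footprints were not called higher, so that the ratio of footprints to mRNA was lower in both HB libraries. The mRNA level of Bdh1 was 57.8 RPKM in HF1 and 59.4 RPKM in HF2, from 2101 and 2191 reads. It was 129 RPKM in HB1 and 149.6 RPKM in HB2, from 9067 and 8431 reads. Both HB libraries were above both HF libraries, as they were for 24.8% of the 10687 genes tested, while they were below for 43.3%. The group means were 58.6 ± 1.16 RPKM in HF and 139.3 ± 14.5 RPKM in HB (SD, n = 2 libraries each), a ratio of 2.38. On the log2(RPKM + 1) scale the mRNA difference was 1.23 with a standard error of 0.25 and a 95% interval of 0.67 to 1.79 (limma, Benjamini-Hochberg adjusted p = 0.00937). By the thresholds of the study for mRNA, a log2 change above 1 with an unadjusted p under 0.001, Bdh1 was called higher, as were 2.30% of the genes tested, while 6.56% were called lower. With the libraries shifted to a common median these shares were 5.05% and 2.72%, and with limma voom on recovered reads 3.68% and 3.75%. The call was lost when HF1 was left out (1.21, adjusted p = 0.0557), when HF2 was left out (1.25, adjusted p = 0.0362) and without a filter on low values (1.23, adjusted p = 0.0539). With any library left out, here and below, the 1 library remaining in its group was assumed to vary like those of the other group. Bdh1 moved from rank 1198 and 1145 among the genes detected in HF1 and HF2 to rank 671 and 613 in HB1 and HB2.

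Acat1 mRNA was also higher in both HB libraries, but the HB libraries differed more from each other. The mRNA level of Acat1 was 61.1 RPKM in HF1 and 58.9 RPKM in HF2, from 2402 and 2348 reads. It was 155.6 RPKM in HB1 and 103.5 RPKM in HB2, from 11828 and 6315 reads. The groups did not overlap, with HB above HF, as for 24.8% of the 10687 genes tested, while HB was below HF for 43.3%. The means were 60.0 ± 1.55 RPKM in HF and 129.5 ± 36.8 RPKM in HB (SD, n = 2 each), a ratio of 2.16. The mRNA difference was 1.07 on the log2 scale with a standard error of 0.28 and an interval of 0.45 to 1.69 (limma, adjusted p = 0.0217). Acat1 therefore passed the fold but not the unadjusted p of the study. With an adjusted p under 0.05 in its place, Acat1 was called higher, as were 5.01% of the genes tested, while 12.7% were called lower. That call was lost without HF1 (adjusted p = 0.0910), without HF2 (adjusted p = 0.0892), without a filter on low values (adjusted p = 0.0701) and, by the fold, without HB1. Without HB2 the difference was 1.36, and without HB1 it was 0.78.

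In HF, the mRNA levels of the 2 enzymes per length could not be separated, and the Bdh1 to Acat1 ratio was 0.947 in HF1 and 1.01 in HF2. In HB the ratio was 0.830 in HB1 and 1.44 in HB2. Acat1 was thus the higher of the pair in HB1 and Bdh1 in HB2, and the 95% counting intervals of the mRNA levels did not overlap within either library. HB1 had 126.4 to 131.7 RPKM for Bdh1 and 152.8 to 158.4 RPKM for Acat1. HB2 had 146.4 to 152.8 RPKM for Bdh1 and 101.0 to 106.1 RPKM for Acat1. These exact Poisson intervals cover counting error only, and reads amplified by PCR are not independent molecules.

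**Figure D1:**
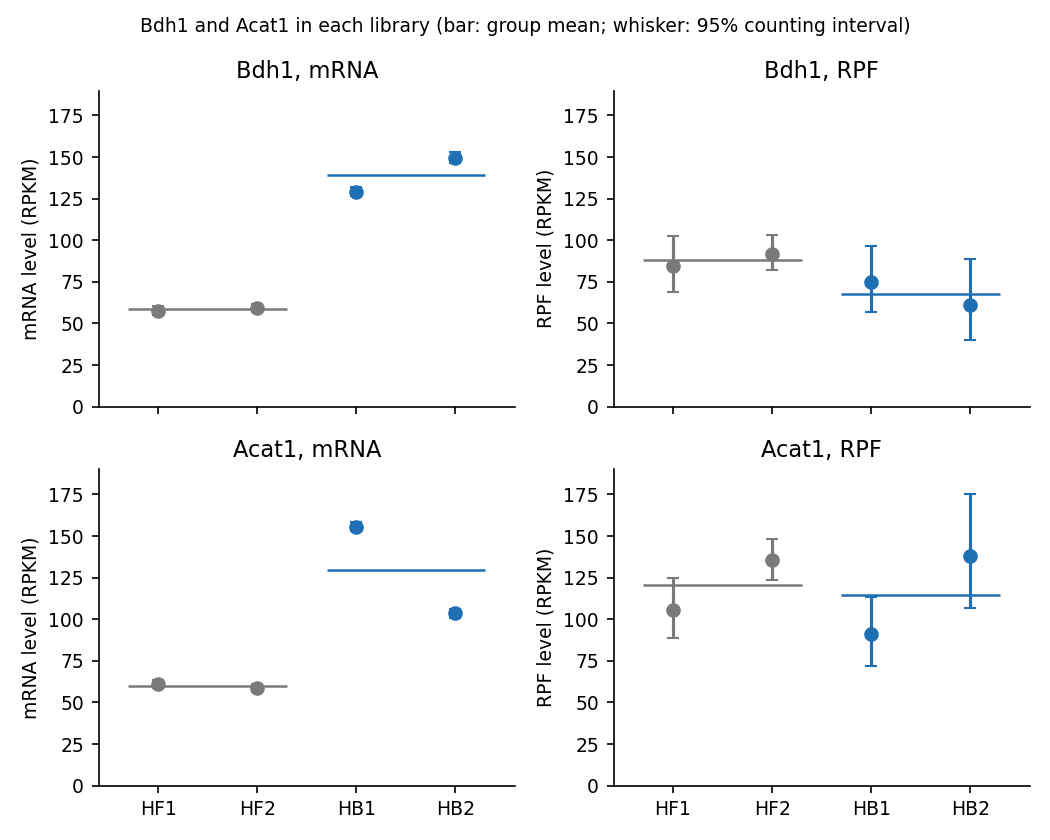
Level of Bdh1 (top) and Acat1 (bottom) in each library as mRNA (left, RPKM) and as ribosome-protected fragments (RPF, right, RPKM), with HF in grey and HB in blue, horizontal bars for group means and whiskers for 95% counting intervals. The HB libraries sit above the HF libraries in mRNA for both genes, whereas both Bdh1 footprint levels are lower in HB and Acat1 footprints overlap between the groups.

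In ribosome-protected fragments (RPFs), neither gene was called. The RPF level of Bdh1 was 84.3 RPKM in HF1 and 92.0 RPKM in HF2, from 102 and 303 reads. It was 74.9 RPKM in HB1 and 61.0 RPKM in HB2, from only 60 and 27 reads. Both HB libraries were below both HF libraries, as for 33.2% of the 11190 genes tested, while they were above for 9.07%. Their counting intervals overlapped those of HF, with 40.2 to 88.8 RPKM in HB2 and 68.8 to 102.4 RPKM in HF1. The means were 88.2 ± 5.42 RPKM in HF and 68.0 ± 9.78 RPKM in HB, a ratio of 0.771. The RPF difference of -0.38 on the log2 scale had a standard error of 0.28 and an interval of -1.11 to 0.36 (limma, adjusted p = 0.653). Bdh1 was not called by the thresholds of the study for RPF, a log2 change beyond 1 with an unadjusted p under 0.05, which called 7.86% of genes lower and 1.58% higher. These shares were 3.76% and 3.12% with a common median and 4.08% and 5.23% with voom. The median RPF difference of all genes tested was -0.43, close to that of Bdh1, and the corresponding mRNA median was -0.19.

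The RPF level of Acat1 was 105.5 RPKM in HF1 and 135.5 RPKM in HF2, from 138 and 483 reads. It was 91.1 RPKM in HB1 and 137.9 RPKM in HB2, from 79 and 66 reads. HB1 was the lowest and HB2 the highest of the 4 libraries, so the groups overlapped. The means were 120.5 ± 21.3 RPKM in HF and 114.5 ± 33.1 RPKM in HB, a ratio of 0.950. The RPF difference was -0.092 on the log2 scale with a standard error of 0.34 and an interval of -0.96 to 0.78 (limma, adjusted p = 0.929), and it was not called. The interval reaches from 0.513-fold to 1.72-fold, so an unchanged level is not shown. Nor is the direction settled, since the value was 0.23 with the libraries shifted to a common median, 0.088 without HF2 and 0.20 without HB1.

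Per length, more footprints lay on Acat1 than on Bdh1 in every library. The Bdh1 to Acat1 ratio of RPF levels was 0.800 in HF1, 0.679 in HF2, 0.822 in HB1 and 0.443 in HB2. In HF1 and HB1 the counting intervals of the 2 genes overlapped, and in HF2 and HB2 they did not. The order of the HB libraries differed between assays for both genes. Bdh1 was higher in HB2 than in HB1 as mRNA and lower as RPF, and Acat1 was lower in HB2 as mRNA and higher as RPF. The labels do not say that RNA-seq and Ribo-seq libraries of the same number came from the same liver.

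Translation efficiency (TE) was taken as the RPF level divided by the mRNA level of the library with the same group and number. The TE of Bdh1 was 1.46 in HF1 and 1.55 in HF2, against 0.580 in HB1 and 0.408 in HB2. The groups did not overlap, with HB below HF, as for 31.7% of the 9455 genes tested, while HB was above HF for 14.0%. The mean TE was 1.50 ± 0.0626 in HF and 0.494 ± 0.122 in HB, 3.04 times higher in HF. The TE difference was -1.61 on the log2 scale with a standard error of 0.57 and an interval of -3.0 to -0.21 (limma, adjusted p = 0.378). It passed the p but not the fold of the TE threshold of the study, a log2 change beyond 2 with an unadjusted p under 0.05, by which 4.60% of genes were called lower and 1.49% higher. It no longer passed that p without HF1 (-1.65), without HF2 (-1.57) or with the replicate number as a block. In HF, Bdh1 stood above the median TE of all genes tested, at percentile 61.4 and 65.8, and in HB it stood below it, at percentile 32.7 and 35.9.

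The TE of Acat1 was 1.73 in HF1 and 2.30 in HF2, against 0.586 in HB1 and 1.33 in HB2. Here too HB lay below HF without overlap, as for 31.7% of the 9455 genes tested, while HB was above HF for 14.0%. HB2 came close to HF1. The mean TE was 2.01 ± 0.407 in HF and 0.959 ± 0.528 in HB. The TE difference was -1.16 on the log2 scale with a standard error of 0.61 and an interval of -2.65 to 0.33 (limma, adjusted p = 0.485), and it was not called. Without replicate 1 of HB in both assays it was -0.57, and without replicate 2 of HB it was -1.75. The gap between HB1 and HB2 depends on which libraries are paired. With each Ribo-seq library divided by the RNA-seq library of the other number, an alternative chosen after seeing the data, the TE of Acat1 was 1.79 and 2.22 in HF against 0.880 and 0.887 in HB, and that of Bdh1 was 1.42 and 1.59 in HF against 0.501 and 0.473 in HB. The differences in TE were the same as with equal numbers, and neither was called. Across genes, which are not independent replicates, the mRNA and RPF deviations of same-numbered libraries had a correlation of -0.0024 in HF and -0.077 in HB.

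**Figure D2:**
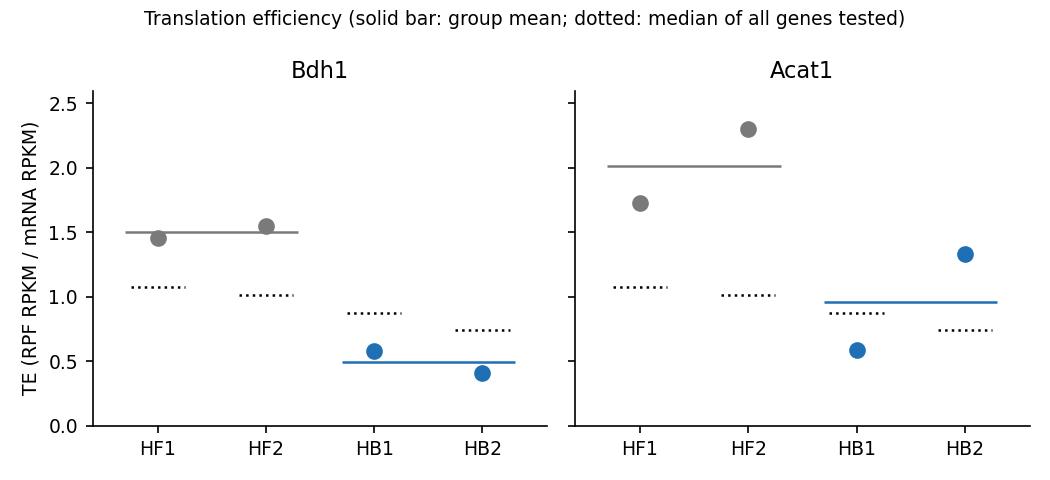
Translation efficiency (RPF RPKM divided by mRNA RPKM) of Bdh1 (left) and Acat1 (right) in each pair of same-numbered libraries, with HF in grey, HB in blue, solid bars for group means and dotted bars for the median of all genes tested in that pair. Bdh1 is above the dotted median in HF and below it in HB, and Acat1 falls below it in HB1, the pair with the TE of 0.586.

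**Figure D3:**
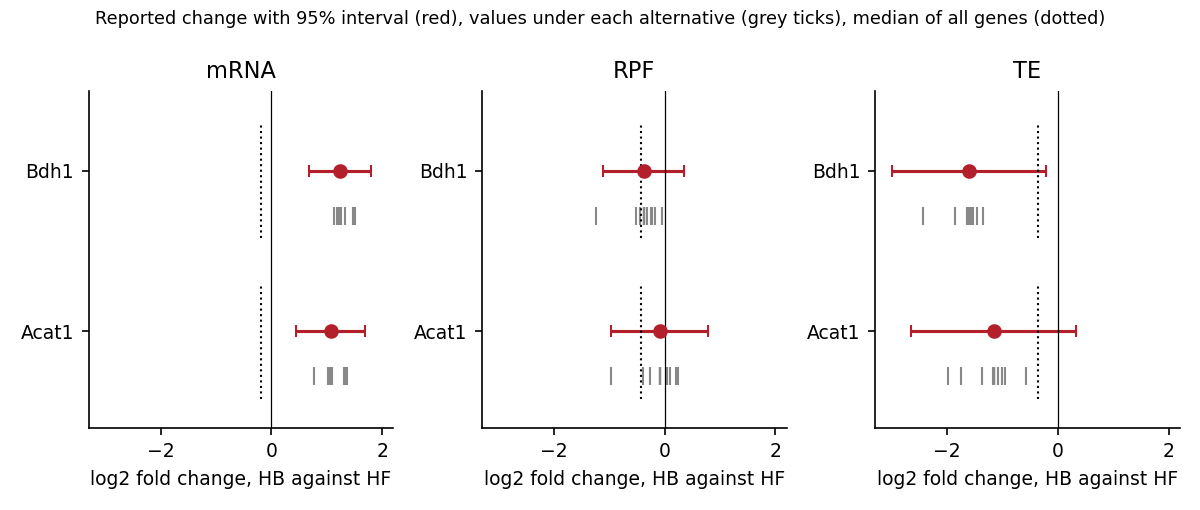
Difference between HB and HF (log2 scale) of Bdh1 and Acat1 in mRNA, RPF and TE, with the reported value and its 95% interval in red, the values under each alternative processing as grey ticks and the median of all genes tested as a dotted line. The mRNA intervals of both genes lie above 0, the RPF intervals include 0, and of the TE intervals only that of Bdh1 excludes 0.

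Of the 233 genes that were called higher in mRNA and tested in RPF, 3 were also called higher in RPF (1.29%) and 9 were called lower (3.86%), beside 1.58% and 7.86% of all genes tested in RPF. Their median RPF difference was -0.19 on the log2 scale, beside -0.43 for all genes and -0.38 for Bdh1. Over all 9455 genes with a TE, the RPF difference was below the mRNA difference in 5977, and the median TE difference was -0.35.

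Bdh2, a cytosolic relative of Bdh1, was the one gene of the ketone body pathway list called higher in RPF. Its footprints were 17.6 and 11.3 RPKM in HF and 36.5 and 42.1 RPKM in HB (log2 difference 1.41, limma adjusted p = 0.493), from 40 reads in all 4 libraries together. The call was lost without HF2 and with RPKM rescaled to a common sum (0.57). Its mRNA was 13.5 and 14.8 RPKM in HF and 18.5 and 17.7 RPKM in HB, a log2 difference of 0.33 that was not called. Bdh1 and Bdh2 thus had opposite signs in RPF, and only Bdh1 was called in mRNA, a contrast that was not itself tested.

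Of the enzymes of ketone body use, the cytosolic one was tested in mRNA. Oxct1, the mitochondrial CoA transferase that other tissues need to burn ketone bodies, had 0.690 and 0.632 RPKM of mRNA in HF and 0.675 and 0.619 RPKM in HB, from 146 reads in all and below the filter on low values. Its footprints were 2.22 and 1.90 RPKM in HF and 4.47 RPKM and none in HB, from 14 reads in all, and were not called. Oxct2b had at most 0.147 RPKM of mRNA in any library, Oxct2a was listed at 0, and Hmgcll1, of the synthesis genes, had 2 reads of mRNA in all 4 libraries. Aacs, the cytosolic acetoacetyl-CoA synthetase, had 38.5 and 39.5 RPKM in HF but 89.6 RPKM in HB1 and 30.8 RPKM in HB2. Aacs and Acat1 were both higher in HB1 than in HB2.

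The other thiolases, relatives of Acat1 that cleave or form the same kind of bond, each had an mRNA difference above 0, as did 39.8% of all genes. With a common median all 6 were above 0 as well, beside 54.7% of all genes. Of the 6, 2 were called higher, beside 2.30% of all genes. Acat2, the cytosolic thiolase of sterol synthesis, had 31.6 and 39.7 RPKM in HF and 117.3 and 78.9 RPKM in HB (log2 difference 1.42, limma adjusted p = 0.00925). Like Acat1, it was higher in HB1 than in HB2, as were Acaa2 and Hadhb, whereas Acat3, Acaa1a and Acaa1b were lower. The footprints of Acat2 overlapped between the groups, with 50.9 and 67.5 RPKM in HF and 74.9 and 37.3 RPKM in HB. Acaa2, the mitochondrial thiolase of fatty acid oxidation, had 270 and 319 RPKM in HF and 799 and 787 RPKM in HB (log2 difference 1.43, limma adjusted p = 0.00785). The footprints of Acaa2 were 567 and 579 RPKM in HF and 459 and 362 RPKM in HB, a log2 difference of -0.49 that was not called. In RPF 1 of the 6 thiolases was above 0, beside 29.6% of all genes. With a common median 3 were above 0, beside 44.6% of all genes, and with RPKM rescaled to a common sum 0 were, beside 9.42%. In TE 0 of the 6 were above 0 under the 4 scalings compared, beside 16.3% to 41.7% of all genes.

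Acat3, a close copy of Acat2, was called in no measure. Its mRNA was 93.0 and 107.2 RPKM in HF and 110.6 and 114.3 RPKM in HB, a log2 difference of 0.17. Its footprints were 44.0 and 52.3 RPKM in HF and 27.4 and 7.08 RPKM in HB, a log2 difference of -1.69 that did not pass the unadjusted p (limma, adjusted p = 0.504). Reads shared between Acat2 and Acat3 may have been split between them by the mapping, so their values are uncertain, and the same holds for Acaa1a and Acaa1b.

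The ketone body pathway list held 25 genes reported here other than Bdh1 and Acat1, covering synthesis, use, transport and control of ketone bodies, the other thiolases and acyl entry into mitochondria, and 21 were tested in mRNA. Of these, 2 were called higher (the thiolases Acat2 and Acaa2) and 1 was called lower, beside 2.30% and 6.56% of all genes tested, with a median difference of 0.30 against -0.19 for all genes. Without a filter on low values none of these 3 calls remained. Without HF1, 0 genes were called higher, 1 was without HF2 and 4 were without HB2. The gene that fell was Slc16a6, a monocarboxylate transporter linked to the export of ketone bodies from the liver, with 5.02 and 4.51 RPKM in HF and 1.07 and 1.18 RPKM in HB (log2 difference -1.44, limma adjusted p = 0.00559). In RPF 1 of 21 was called higher and 0 lower by limma, beside 1.58% and 7.86% of all genes, with a median of -0.39 against -0.43 for all genes. At an unadjusted limma p under 0.05, 1 gene was lower in RPF (4.76%), beside 8.31% of all genes. In TE 0 of 20 were called by limma, beside 4.60% lower and 1.49% higher over all genes. At an unadjusted p under 0.05, 2 were lower and 0 higher in TE, beside 9.37% and 2.83% of all genes, and 17 of the 20 differences were below 0, as were 63.2% over all genes. The interaction of assay and group, fitted with limma over all 8 libraries, called 0 as well. The median TE difference was -0.64 against -0.35 for all genes, and Bdh1 and Acat1 lay below that list median with -1.61 and -1.16.

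**Figure D4:**
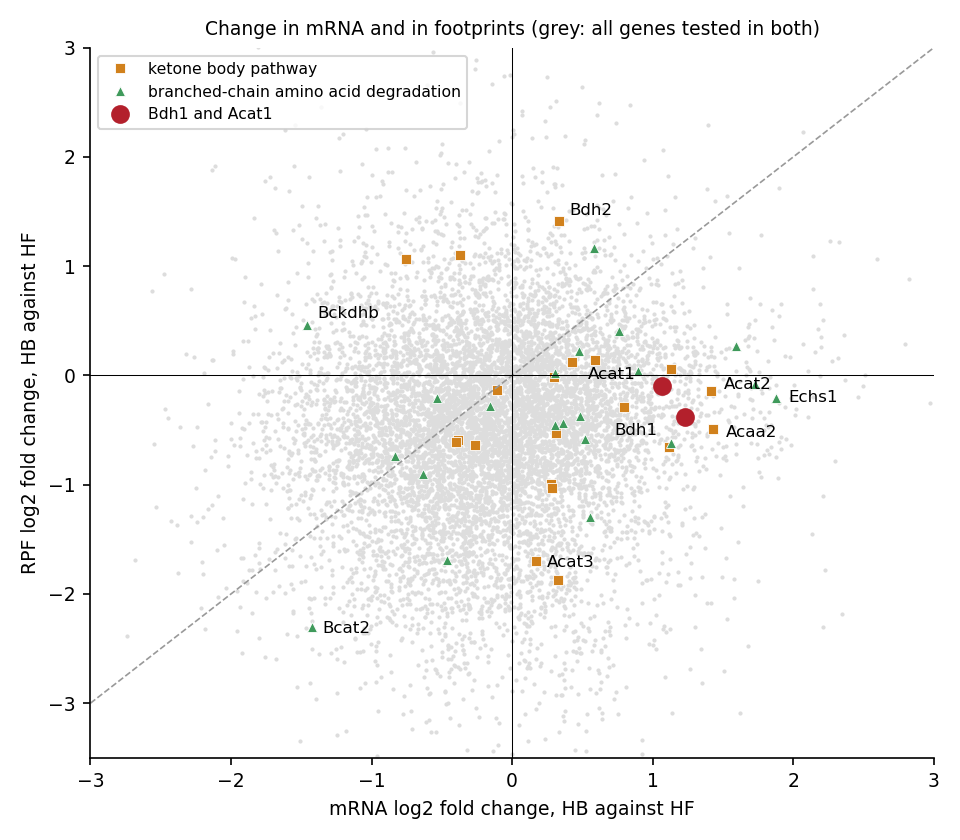
Difference between HB and HF in mRNA (x axis, log2) against that in RPF (y axis, log2) for the 9455 genes tested in both (grey, of which 29 lie outside the axes), the ketone body pathway (squares), branched-chain amino acid degradation (triangles) and Bdh1 and Acat1 (red), with a dashed line where the differences are equal. Bdh1 and Acat1 lie to the right of 0 and just below 0 in RPF, where Acat1 is above 0 with a common median (0.23). Among the genes near them are the thiolases Acat2 and Acaa2 and, not labelled, Hadhb (1.13 in mRNA and 0.057 in RPF).

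Acat1 also belongs to the breakdown of branched-chain amino acids, of which 22 other genes were tested in mRNA, with 3 called higher and 2 lower, beside 2.30% and 6.56% of all genes. The 3 were Echs1, Pcca and Pccb, and 1 gene of the list was called higher without a filter on low values and 7 without HB2. Echs1, the enoyl-CoA hydratase that acts in the same branch, had 37.3 and 44.6 RPKM in HF and 179.7 and 129.6 RPKM in HB (log2 difference 1.88, limma adjusted p = 0.00525). Pcca and Pccb, the subunits of propionyl-CoA carboxylase, act after Acat1 and serve valine breakdown too, and they had log2 differences of 1.72 and 1.59. Acadsb and Hsd17b10, which like Echs1 act before Acat1 in isoleucine breakdown, had 0.36 and 0.58 and were not called. Mcee and Mut, which act after Acat1, had -0.53 and 0.81 and were not called either. Echs1, Pcca, Pccb, Acadsb, Mut and Acat1 were higher in HB1 than in HB2. Hsd17b10 (278 RPKM in HB1 and 428 RPKM in HB2) and Mcee (69.3 and 100.9 RPKM) went the other way. How often either order held over all genes was not tested.

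Of the shared first steps of that route, Bcat2 and Bckdhb fell in mRNA, with log2 differences of -1.42 and -1.46, although neither was called without HF1 or with a common median (-1.15 and -1.18). Bckdhb, a subunit of the branched-chain ketoacid dehydrogenase, had 188.3 and 186.6 RPKM in HF and 67.6 RPKM in both HB libraries, the reverse of the Acat1 pattern. Bcat2, the mitochondrial branched-chain aminotransferase, was the 1 gene of the 22 called lower in RPF, beside 7.86% of all genes. It had 2.87 and 5.26 RPKM in HF and no reads in HB, but only 12 reads in all, so no fold is given. The median difference over the 22 genes was 0.48 in mRNA, -0.24 in RPF (0.085 with a common median) and -0.80 in TE, the last over 21 genes, beside -0.19, -0.43 (-0.10 with a common median) and -0.35 for all genes. In TE 1 of the 21 genes was called lower, beside 4.60% of all genes, and this was Echs1 (log2 difference -2.08, limma adjusted p = 0.334), a call lost without HF1, without HF2 and with RPKM rescaled to protein-coding reads (-1.93). In RPF it had 125.3 and 161.3 RPKM in HF and 98.4 and 154.8 RPKM in HB. As for Acat1, the RPF level of Echs1 was higher in HB2 than in HB1.

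Across the 8 libraries, the genes most like each enzyme were found by the distance between log2(RPKM + 1) values centred within each assay, among 3327 genes with a mean of at least 10 RPKM in both. The 5 nearest to Bdh1 were Mrpl12, Ctsd, Pepd, Acaa2 and Pla2g12b, at distances of 0.322 to 0.335 against a median distance of 1.59. Their mRNA differences ran from 0.97 for Mrpl12 to 1.43 for Acaa2 and their RPF differences from -0.51 for Pepd to -0.26 for Ctsd. The 5 nearest to Acat1 were Ywhaq, Mccc2, Snd1, Aldh1a1 and Hspd1, at distances of 0.247 to 0.335. Of these, Mccc2 encodes a subunit of the leucine-degrading methylcrotonyl-CoA carboxylase and Hspd1 the mitochondrial chaperonin. Acat1 was only the 329th nearest gene to Bdh1, at a distance of 0.919, and Bdh1 the 354th nearest to Acat1. All genes of a library share its depth and scaling, and these distances are a description with no test.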

How the data were processed

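RNA-seq and Ribo-seq reads were mapped to mm10 with FANSe2 by the authors, who deposited an RPKM for each gene in each library. The counting, strand setting and annotation are not given in the sources used here. Each library's total was the most frequent value implied by its RPKM and the GENCODE M21 transcript lengths. Gene lengths that gave whole reads were then searched for, and with these 99.99% of values were whole within about 0.002 reads. Genes averaging at least 1 RPKM in an assay entered limma 3.58.1 under R 4.3.3 (eBayes with trend, two-sided) on log2(RPKM + 1). Group was the sole term, and p-values were adjusted over all genes tested. TE was tested on log2((RPF + 1)/(mRNA + 1)), while printed TE values are plain RPKM ratios. With 2 libraries against 2, an exact permutation test cannot go below p = 0.333. GENCODE M21 gave coordinates and transcripts and held 23850 of 24535 RNA-seq and 24431 of 25033 Ribo-seq symbols, and 4 RNA-seq entries sharing a symbol were dropped. The members and gene lists were chosen with earlier results of these data known. Of the ketone body pathway list, 2 genes are not reported here, and all counts and medians leave them out. Named genes are both enzymes, every listed gene called in any measure, the genes of ketone body synthesis and use, Acat2, Acat3 and Bdh2, and the 5 genes nearest to each enzyme. Of the lists, Acaa1a, Acaa1b, Hadhb, Acadsb, Hsd17b10, Mcee and Mut are also named, outside that rule. Other pseudocounts, filters, scalings, a replicate block, voom on recovered reads and leaving out libraries were tried.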

Additional observations from a re-analysis of the deposited data

How the results depend on the processing

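The mRNA difference of Bdh1 kept its direction under all 15 alternatives, from 1.13 to 1.50, and its call under 12. It lost the call without a filter on low values (1.23, adjusted p = 0.0539) and, as given above, without HF1 or HF2, with 1.13 to 1.34 over the libraries left out in turn. Acat1 mRNA was above 0 under the same alternatives, from 0.78 to 1.36, and was called under 4 of them, with a common median (1.34), an adjusted p (1.07), limma voom with TMM factors on recovered reads (1.32) and without HB2, with 0.78 to 1.36 over the libraries left out. The shift to a common median moved the median mRNA difference of all genes from -0.19 to 0.084 and that of RPF from -0.43 to -0.10. Bdh1 RPF was below 0 under all 14 alternatives, from -1.24 to -0.051, and was called only with RPKM rescaled to a common sum (-1.24), as was its TE (-2.43). That sum was 1.09e+06 and 1.25e+06 in HF and 1.74e+06 and 2.64e+06 in HB, of which Mir122, a very short entry, held 24.1% in HB1 and 29.5% in HB2, so the rescaling itself lowers all HB footprint levels. Acat1 RPF was above 0 under 5 of 14 alternatives, with a common median (0.23), with RPKM rescaled to protein-coding reads (0.044, an alternative chosen after seeing the data), with voom (0.039) and with libraries left out in turn (-0.39 to 0.20). Acat1 TE was not called under any of 15 alternatives, from -1.99 to -0.57.

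Counts of called genes in the ketone body pathway (K) and branched-chain amino acid degradation (B) moved by over 1.5 times as follows, and the cause was not tested. In mRNA, no filter on low values gave 0 higher and 0 lower in K and 1 higher and 1 lower in B, a mean RPKM of at least 5 gave 0 lower in K, a common median gave 0 lower in B, an adjusted p gave 4 higher in K and voom gave 1 lower in B. Leaving out libraries gave 0 to 4 higher in K, 3 to 7 higher in B and 0 to 2 lower in B. In RPF, no filter, a common median, protein-coding reads and voom each gave 1 higher in B, voom also gave 2 higher in K and 0 lower in B, a mean RPKM of at least 5 gave 1 lower in K and 0 lower in B, an adjusted p gave 0 higher in K and 0 lower in B, and a common sum gave 0 higher and 7 lower in K and 10 lower in B. Leaving out libraries gave 0 to 2 higher and 0 to 3 lower in K and 0 to 1 higher and 0 to 4 lower in B. In TE, a common sum gave 7 lower in K and 4 lower in B, protein-coding reads gave 1 higher and 0 lower in B, an adjusted p gave 0 lower in B, and leaving out replicates gave 0 to 1 higher and 0 to 4 lower in K and 0 to 2 lower in B. With the settings of the report, limma gave 0 genes an adjusted p under 0.05 in RPF and in TE, against 192 higher and 930 lower in RPF and 268 higher and 886 lower in TE at an unadjusted p under 0.05. Other settings gave some, in RPF 70 with voom, 24 with the replicate block and 1 with a mean RPKM of at least 5, and in TE 1561 without HB replicate 1, 951 without HB replicate 2 and 1 with the interaction of assay and group.

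Across genes, the deviations of same-numbered HF and HB libraries had a correlation of -0.10 in mRNA and -0.014 in RPF. With 2 libraries per group, this cannot show whether the replicate numbers pair the libraries. With the replicate block, Bdh1 mRNA had an adjusted p of 0.00161 and Acat1 mRNA one of 0.00627, K had 4 higher in mRNA and 2 lower in RPF, B had 1 higher in RPF, and no call of either enzyme changed. Over all genes the block called 498 higher and 1229 lower in mRNA, against 246 and 701 without it. With crossed numbers, also chosen after seeing the data, it called 474 and 1303.

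In RPF Bdh1 rested on 27 and Acat1 on 66 reads in HB2, where 3 reads on a length of 1 kb are worth 21.1 RPKM.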
